A study of Ovis aries with 24 samples.

Results

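The set described here holds 10 genes: GREB1, RASD1, MYBL1, CXCL12, TGFA, RET, STC2, SIAH2, CISH and OLFM1, all known as estrogen-regulated from work in tissues such as breast and uterus. They were chosen by name, as the rows whose gene name equals one of these symbols, and each of the 10 matched 1 row among the 27054 features of the count tables. The question was which of these breast or uterus targets respond to estradiol (E2) in pituitary cells.

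E2 acts mainly through nuclear estrogen receptors, which bind estrogen response elements in DNA or act through other bound transcription factors, and recruit coactivators or corepressors. The set of genes they reach depends on the cell type. In the pituitary, estrogen is known to feed back on gonadotropes, the cells that secrete luteinizing and follicle-stimulating hormone, and to act on lactotropes, which secrete prolactin.

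The data are RNA-seq counts from 24 libraries of primary sheep pituitary cultures, in 4 groups of 6. All cultures came from ovariectomized ewes of the Western white faced breed. At 24 hours after dispersal all received an adenovirus that drives green fluorescent protein in gonadotropes, and 3 days later they received 10 nM E2 or ethanol vehicle for 6 hours. The groups were sorted cells with E2, sorted cells with vehicle, unsorted anterior pituitary cells with E2 and unsorted cells with vehicle. Sorted cells were collected by fluorescence-activated cell sorting and labelled as gonadotropes. Whether the unsorted cells also went through the sorter, how many ewes were used and whether equal replicate numbers mark one culture is not in the labels. Where replicates came from one pool, p-values measure only the spread between libraries.

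Total counts ran from 4.19 to 6.19 M in replicates 1 to 3 and from 19.2 to 37.0 M in replicates 4 to 6, in each case over all 4 groups. Levels are in CPM, counts per M reads on TMM-scaled library sizes. The summed level of 7 gonadotrope markers (GNRHR, CGA, LHB, FSHB, NR5A1, DMP1 and FOXP2) ran from 2620 to 5077 CPM in sorted E2, 2468 to 5561 CPM in sorted vehicle, 281 to 1548 CPM in unsorted E2 and 287 to 1379 CPM in unsorted vehicle libraries. The sorted libraries also held transcripts typical of other cell types. PRL, the prolactin gene of lactotropes, took 6.17 to 15.2% of counts in sorted E2, 7.14 to 16.8% in sorted vehicle, 4.26 to 9.68% in unsorted E2 and 3.96 to 8.98% in unsorted vehicle libraries.

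Of the 10 genes, 2 rose with E2 in sorted cells, GREB1 and RASD1. None fell, by this test, by DESeq2 or at an unadjusted p under 0.05. A gene was called when its adjusted p was under 0.05 (edgeR quasi-likelihood test with Benjamini-Hochberg adjustment over all genes tested). In sorted cells 8 of the 10 passed the filter on low counts, and 1.11% of the 14334 genes tested were called higher and 0.258% lower. In unsorted cells 9 passed the filter and 0 were called in either direction, where 0.212% of the 15083 genes tested were called higher and 0.0331% lower. At an unadjusted p under 0.05, 1 of the 9 (GREB1) was higher, and DESeq2 also called 0. When the replicate number entered the edgeR fit as a block, GREB1 and RASD1 rose in both preparations, against 7.03% of genes called higher in sorted and 2.86% in unsorted cells, and none of the 10 fell, against 6.2% and 2.37% of genes called lower. In libraries of mixed cells, fewer cells of a type and less RNA per cell cannot be told apart.

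**Figure D1:**
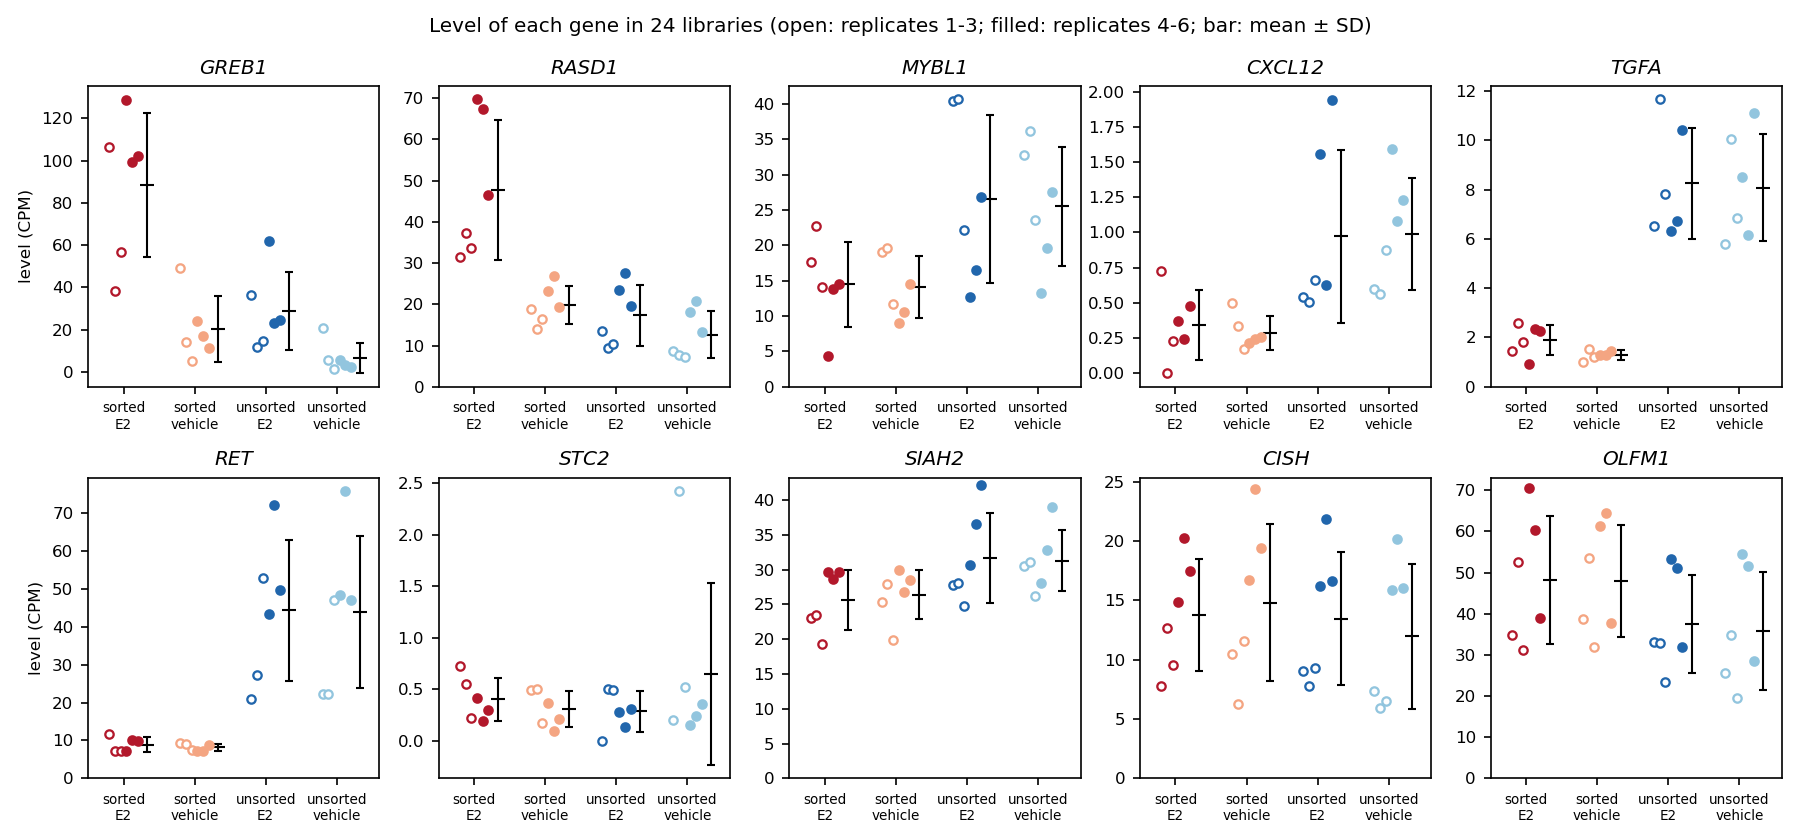
Level in CPM (y axis, one scale per gene) of the 10 genes in the 24 libraries, by group (x axis), with the mean and SD of each group as a bar. GREB1 and RASD1 stand highest in the sorted E2 group, while TGFA and RET of sorted and unsorted cells do not overlap, with or without E2.

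GREB1 (ENSOARG00000016103) encodes a chromatin-bound cofactor of the estrogen receptor and is among the most widely used estrogen target genes in breast cells. In sorted cells its lowest, median and highest levels were 38.1, 101 and 129 CPM with E2 and 4.93, 15.4 and 49.3 CPM with vehicle. The ranges overlapped through vehicle replicate 1, whose 49.3 CPM lay above the 38.1 CPM of E2 replicate 2. GREB1 averaged 88.6 ± 34.1 CPM with E2 and 20.1 ± 15.6 CPM with vehicle (SD, n = 6 each), a rise of 2.18 ± 0.47 on the log2 scale (SE; adjusted p = 0.041 by edgeR). Each E2 library stood above the vehicle library of the same number, from 2.16-fold to 11.2-fold, where 6.22% of genes tested had 6 of 6 pairs higher. The call depended on single libraries: of 12 fits with one library fewer, only the 2 without sorted vehicle replicate 1 or sorted E2 replicate 2 kept it, and adjusted p reached 0.106. In the fit with the replicate block the rise was 2.38 ± 0.33 (adjusted p = 0.0079), and leaving out any one replicate number kept that call.

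In unsorted cells GREB1 levels were 11.8, 23.8 and 61.8 CPM with E2 and 1.58, 4.33 and 20.8 CPM with vehicle (lowest, median and highest). Vehicle replicate 1 was again the highest of its group and the only one inside the E2 range. The means were 28.7 ± 18.4 CPM with E2 and 6.56 ± 7.15 CPM with vehicle (SD, n = 6 each). The log2 difference was 2.24 ± 0.57, about the size seen in sorted cells, but by edgeR it missed the threshold (adjusted p = 0.21, no block). Without unsorted vehicle replicate 1 it was 2.95 and passed (adjusted p = 0.013). In the blocked fit GREB1 rose by 2.66 ± 0.43 (adjusted p = 0.032), and that call held in only 1 of 6 fits that each left out a replicate number, the one without replicate 1 (adjusted p up to 0.143).

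The GREB1 rise was smallest in replicates 1 and 2 in both preparations. It was largest in replicate 3 in sorted cells and in replicate 4 in unsorted cells. In sorted cells the log2 ratios of same-numbered libraries were 1.11 and 1.44 in replicates 1 and 2 and 2.41 to 3.49 in replicates 3 to 6. In unsorted cells they were 0.81 and 1.11 in replicates 1 and 2 and 2.79 to 3.37 in the other four. The vehicle level was highest in replicate 1 and lowest in replicate 3 in both preparations. Within replicates 1 to 3 alone, with the replicate block, GREB1 was 1.67 higher in sorted cells (adjusted p = 0.448) and rose by 1.31 in unsorted cells (adjusted p = 0.031). Within the deeper replicates 4 to 6 it rose by 2.72 (adjusted p = 4.7e-05) in sorted and 3.20 (adjusted p = 2.2e-07) in unsorted cells.

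RASD1 (ENSOARG00000001748) encodes a small GTPase of the Ras family, first known as a gene induced by glucocorticoid. In sorted cells its lowest, median and highest levels were 31.6, 41.8 and 69.8 CPM with E2 and 14.0, 19.0 and 27.0 CPM with vehicle. The groups did not overlap, and RASD1 was the only one of the 8 tested genes of which this was true, where 1.03% of genes tested had all E2 libraries above all vehicle libraries. RASD1 averaged 47.7 ± 17.0 CPM with E2 and 19.8 ± 4.68 CPM with vehicle (SD, n = 6 each), a log2 rise of 1.30 ± 0.22 (SE; adjusted p = 0.0074 by edgeR). Leaving out any single library kept the call (12 of 12 fits, adjusted p at most 0.029). With the replicate block the rise was 1.32 ± 0.08 (adjusted p = 3.4e-09, edgeR). In blocked fits of part of the libraries it was 1.08 within replicates 1 to 3 (adjusted p = 4.4e-06) and 1.42 within replicates 4 to 6 (adjusted p = 1.2e-07).

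In unsorted cells the RASD1 levels were 9.29, 16.5 and 27.7 CPM with E2 and 7.35, 10.9 and 20.9 CPM with vehicle, and the ranges overlapped over most of their length. None of the 9 genes tested in unsorted cells had E2 libraries all above vehicle libraries, which 0.424% of genes did. The means were 17.3 ± 7.43 CPM with E2 and 12.7 ± 5.75 CPM with vehicle (SD, n = 6 each). The unblocked difference was 0.44 ± 0.30 and did not pass (adjusted p = 1.00, edgeR). Each E2 library was nevertheless above its same-numbered vehicle library, from 1.18-fold to 1.56-fold, and with the replicate block RASD1 rose by 0.45 ± 0.07 (adjusted p = 0.00026), a call that held without any one replicate number. The difference was 0.47 within replicates 1 to 3 (adjusted p = 0.595) and 0.45 within replicates 4 to 6 (adjusted p = 0.0022).

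**Figure D2:**
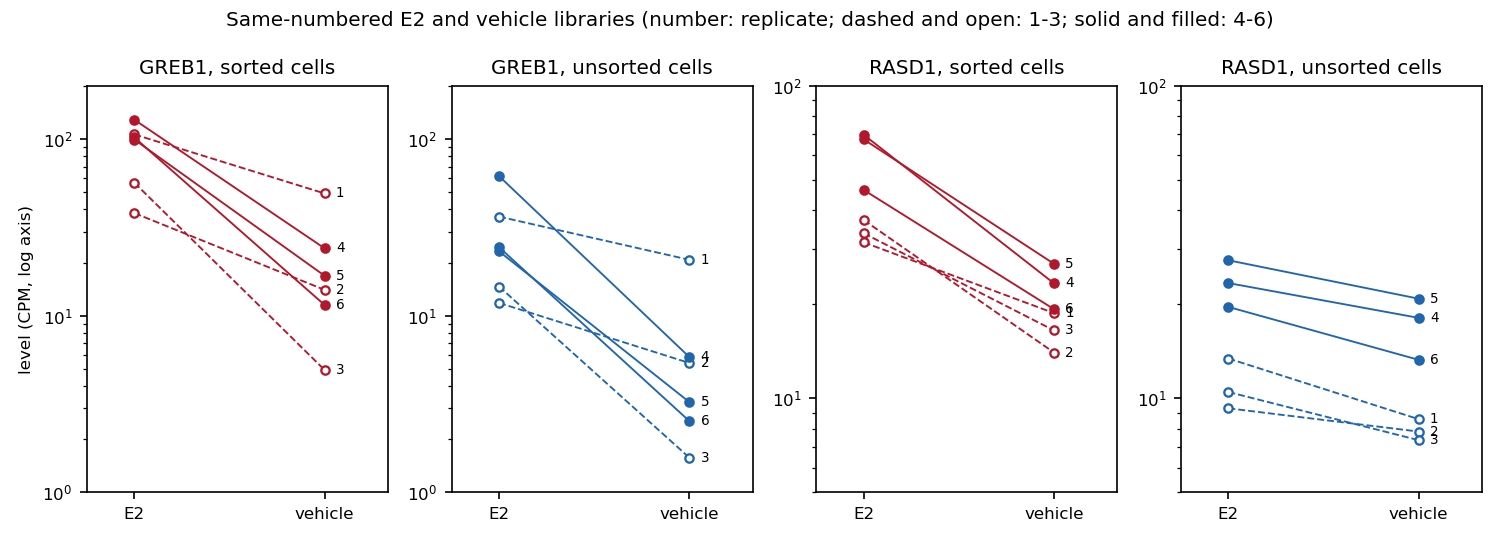
Level in CPM (log axis) of GREB1 and RASD1 in E2 and vehicle libraries, with a line between libraries of the same replicate number. Every line is higher at E2; the lines of RASD1 are steeper in sorted than in unsorted cells, and those of GREB1 are flattest in replicates 1 and 2.

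Whether the E2 response differed between preparations was tested as an interaction over all 24 libraries. None of 9 genes tested was called in the unblocked fit, in which 0.0264% of the 15134 genes tested were called. At an unadjusted p under 0.05, 1 of the 9 (RASD1) had a larger response in sorted cells, and DESeq2 called 0. In the blocked fit RASD1 was called, against 0.33% of genes with a larger response in sorted cells. Its response was larger in sorted cells by 0.83 ± 0.15 (adjusted p = 0.0091), in 6 of 6 replicates, by 0.11 to 1.21. The call was lost when replicate 4, 5 or 6 was left out (adjusted p up to 0.123). For GREB1 the difference was -0.10 with the block (95% interval -1.15 to 0.95; adjusted p = 1.00), and the response was larger in sorted cells in 3 of 6 replicates. Those were replicates 1 to 3, and it was smaller in replicates 4 to 6. The interval does not show that the GREB1 response was the same in both. The summed gonadotrope markers were several times higher in sorted libraries in both treatments, and their part in the RASD1 difference was not tested.

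None of the remaining 8 genes was called for E2 where it was tested, with or without the block. STC2 failed the filter in both preparations and CXCL12 in sorted cells, so they were not tested there. MYBL1 (ENSOARG00000017663), a transcription factor of the MYB family, had 4.35, 14.3 and 22.7 CPM with E2 and 9.06, 13.2 and 19.6 CPM with vehicle in sorted cells (lowest, median and highest). The ranges overlapped, and 3 of 6 pairs were higher with E2. The log2 difference was 0.06 (95% interval -0.62 to 0.75) in sorted and 0.06 (-0.62 to 0.73) in unsorted cells. E2 replicate 4 was the lowest sorted library, at 4.35 CPM, and its pair gave a log2 ratio of -1.04 where the other pairs lay between -0.12 and 0.38.

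TGFA, CXCL12 and STC2 encode secreted ligands or hormones. TGFA (ENSOARG00000011111), a ligand of the epidermal growth factor receptor, had 0.925, 2.04 and 2.57 CPM with E2 and 0.996, 1.29 and 1.52 CPM with vehicle in sorted cells. The E2 libraries were the higher of the pair in 5 of 6 replicates, with replicate 4 the exception. The log2 difference was 0.57 ± 0.26 (95% interval 0.00 to 1.13; adjusted p = 0.687, edgeR), and 0.52 ± 0.21 with the replicate block (adjusted p = 0.118). In unsorted cells TGFA had 6.33, 7.27 and 11.7 CPM with E2 and 5.79, 7.66 and 11.1 CPM with vehicle, and the difference was 0.02 (-0.45 to 0.49). The response was 0.54 larger in sorted cells with the block, which did not pass (adjusted p = 0.866).

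CXCL12 (ENSOARG00000002991), a chemokine that acts through the receptor CXCR4, was near the limit of detection in sorted cells. Its levels there were 0, 0.307 and 0.726 CPM with E2 and 0.170, 0.247 and 0.498 CPM with vehicle, from 29 reads in all E2 and 21 reads in all vehicle libraries, and it failed the filter. A change was not detectable at this depth. In unsorted cells CXCL12 had 0.507, 0.645 and 1.94 CPM with E2 and 0.559, 0.979 and 1.59 CPM with vehicle. The ranges overlapped, and 5 of 6 pairs were lower with E2, while replicate 6 was higher by 0.61 on the log2 scale. The difference with the replicate block was 0.00 (95% interval -0.48 to 0.49).

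STC2 (ENSOARG00000004176), a stanniocalcin, a secreted glycoprotein hormone, failed the filter in every comparison. Its levels were 0.195, 0.361 and 0.726 CPM in sorted E2 and 0.0963, 0.292 and 0.507 CPM in sorted vehicle libraries, from 28 and 21 reads in all. In unsorted cells they were 0, 0.293 and 0.507 CPM with E2 and 0.156, 0.298 and 2.42 CPM with vehicle, from 30 and 43 reads. Unsorted vehicle replicates 2 and 6 held 13 reads each, which gave 2.42 CPM in replicate 2 and 0.355 CPM in the deeper replicate 6. STC2 was higher with E2 in 6 of 6 sorted pairs, where 6.22% of genes tested were, and in 1 of 6 unsorted pairs. In sorted replicates 2 and 3 the paired libraries held equal reads, 3 and 1 each. In a fit without the filter the difference was 0.43 ± 0.50 in sorted and -0.92 ± 0.72 in unsorted cells (log2 ± SE), and neither passed.

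RET (ENSOARG00000003932), the receptor tyrosine kinase of the GDNF family of ligands, had 7.15, 8.52 and 11.8 CPM with E2 and 7.27, 8.17 and 9.29 CPM with vehicle in sorted cells. The E2 range enclosed the vehicle range. The log2 difference was 0.14 (95% interval -0.19 to 0.48) in sorted cells. In unsorted cells, with 20.9, 46.6 and 72.3 CPM with E2 and 22.2, 47.1 and 76.0 CPM with vehicle, it was 0.01 (-0.66 to 0.69), and 0.00 (-0.12 to 0.13) with the replicate block.

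SIAH2 (ENSOARG00000004352), an E3 ubiquitin ligase, had the narrowest unblocked interval in sorted cells. Its levels there were 19.3, 26.1 and 29.7 CPM with E2 and 19.9, 27.4 and 30.0 CPM with vehicle. In unsorted cells they were 24.8, 29.4 and 42.1 CPM with E2 and 26.3, 30.8 and 39.0 CPM with vehicle. The ranges overlapped in both, and the differences were -0.01 (95% interval -0.28 to 0.26) in sorted and 0.02 (-0.27 to 0.31) in unsorted cells.

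CISH (ENSOARG00000008693), a member of the SOCS family that inhibits cytokine signalling, had 7.81, 13.8 and 20.2 CPM with E2 and 6.25, 14.1 and 24.4 CPM with vehicle in sorted cells. There 5 of 6 E2 libraries stood below their vehicle pair, while replicate 2 stood above it by 1.00 on the log2 scale, and the difference was -0.07 (95% interval -0.71 to 0.56). In unsorted cells CISH had 7.77, 12.8 and 21.8 CPM with E2 and 5.97, 11.6 and 20.2 CPM with vehicle. All 6 pairs were higher with E2 there, by 0.03 to 0.52, as they were for GREB1 and RASD1, where 5.22% of genes tested had 6 of 6 pairs higher. The CISH difference was 0.13 ± 0.08 with the replicate block and did not pass (95% interval -0.03 to 0.29; adjusted p = 0.456).

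OLFM1 (ENSOARG00000001985), a secreted glycoprotein of the olfactomedin family found in the nervous system, had 31.3, 45.8 and 70.5 CPM with E2 and 31.8, 46.1 and 64.4 CPM with vehicle in sorted cells. In unsorted cells it had 23.3, 33.0 and 53.3 CPM with E2 and 19.4, 31.7 and 54.5 CPM with vehicle. The ranges nearly coincided. The differences were 0.04 (95% interval -0.45 to 0.53) in sorted and 0.07 (-0.47 to 0.61) in unsorted cells, and with the block 0.04 (-0.08 to 0.16) and 0.07 (-0.05 to 0.20).

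**Figure D3:**
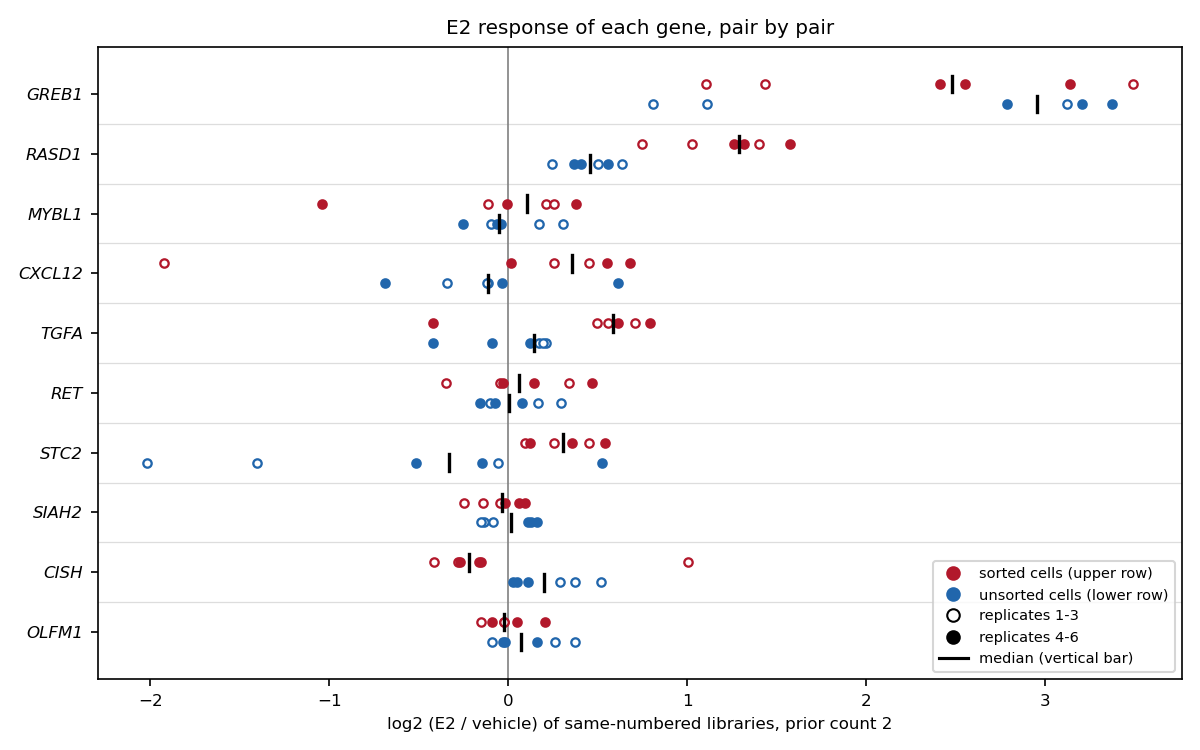
Log2 ratio of the E2 over the vehicle library of the same number (x axis) for each gene (y axis), with sorted cells in the upper row and unsorted cells in the lower row of each gene. The points of GREB1 and RASD1 all lie above 0; those of the other genes lie on both sides of 0 in at least one preparation.

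The genes also differed in where they stood before E2, which was asked by setting sorted against unsorted vehicle libraries. This comparison shares its vehicle libraries with the E2 comparisons above. Of 8 genes tested, 2 were higher and 3 lower in sorted cells, where 24.4% of the 14468 genes tested were called higher and 25.8% lower, so about as large a share of all genes was called. Those called higher were GREB1 and RASD1, and with the replicate block OLFM1 and CISH were called higher as well. On the vehicle levels given above, GREB1 was higher in sorted cells by 1.71 ± 0.65 (log2 ± SE; adjusted p = 0.043 by edgeR), and by 1.87 ± 0.17 with the replicate block (adjusted p = 3.6e-06). RASD1 was higher by 0.64 ± 0.25 (adjusted p = 0.045), and by 0.71 ± 0.13 with the block (adjusted p = 0.00074). Without the block only 4 of 12 fits with one library fewer kept the call of GREB1 (adjusted p up to 0.109) and only 3 of 12 that of RASD1 (up to 0.104). GREB1, RASD1, OLFM1 and CISH were higher in 6 of 6 pairs, where 27.7% of genes tested were.

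TGFA, RET and MYBL1 were lower in sorted cells. With vehicle, TGFA ran from 0.996 to 1.52 CPM after sorting and from 5.79 to 11.1 CPM without it, with no overlap, and the log2 difference was -2.62 ± 0.22 (adjusted p = 4.4e-07, edgeR). RET ran from 7.27 to 9.29 CPM in the sorted group and from 22.2 to 76.0 CPM in the unsorted group, again with no overlap, and differed by -2.41 ± 0.26 (adjusted p = 5.1e-06). All sorted libraries lay below all unsorted libraries for 2 of the 8 genes tested and for 16.4% of all genes tested. MYBL1 averaged 14.1 ± 4.43 CPM in the sorted group and 25.5 ± 8.44 CPM in the unsorted group (SD, n = 6 each), with overlap, and differed by -0.84 ± 0.26 (adjusted p = 0.016). Leaving out any single library kept these 3 calls.

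CXCL12, which failed the filter here, had no overlap in CPM either, with 0.170 to 0.498 CPM in sorted and 0.559 to 1.59 CPM in unsorted vehicle libraries. Its read counts did meet: sorted vehicle replicate 1 and unsorted vehicle replicates 1 and 2 held 3 reads each. Without the filter CXCL12 was lower in sorted cells by 1.92 ± 0.40 on the log2 scale (adjusted p = 0.0011, edgeR). Within replicates 4 to 6 alone, with the replicate block, the difference was -2.39. CXCL12 passed the filter there only through the unsorted libraries, with 51, 36 and 45 reads against 4, 5 and 6 in the sorted ones. That fit is therefore not separate support. OLFM1 was 0.43 ± 0.25 higher and CISH 0.30 ± 0.34 higher, which did not pass (adjusted p = 0.157 and 0.475). With the replicate block, in which 32.5% of genes were called higher and 31.1% lower, OLFM1 was higher by 0.47 ± 0.09 (adjusted p = 0.00076) and CISH by 0.34 ± 0.12 (adjusted p = 0.028), and the CISH call was lost in 4 of 6 fits that left out a replicate number. SIAH2 differed by -0.23 (95% interval -0.48 to 0.03), or -0.23 with the block (adjusted p = 0.054).

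Markers of other cell types also differed between the preparations, in both directions. The summed level of 8 fibroblast and pericyte markers ran from 646 to 1408 CPM in sorted and from 3560 to 9497 CPM in unsorted vehicle libraries. That of 6 folliculostellate and stem cell markers ran from 2147 to 2931 CPM in sorted and from 4802 to 6202 CPM in unsorted vehicle libraries, and that of 7 endothelial markers from 14.7 to 41.0 CPM in sorted and from 34.5 to 78.8 CPM in unsorted vehicle libraries. Within these lists 5 of 8 fibroblast and pericyte markers, 4 of 6 folliculostellate and stem cell markers and 5 of 7 endothelial markers were called lower in sorted cells, while DCN, ALDH1A1 and S100B were called higher (edgeR, no block). Among markers of other hormone cells, 3 of 3 for lactotropes (PRL, DRD2 and TRHR) and 2 of 3 for somatotropes (GHRHR and POU1F1) were called higher there. So were 2 of 4 for corticotropes (POMC and PCSK1) and 2 of 4 for thyrotropes (TSHB and again TRHR). The thyrotrope marker TBX3 was called lower. Of 4 immune markers tested, CD3E was called higher and CD14 and CSF1R lower. None of these markers was at 0 in either group. Their part in the higher levels of GREB1 and RASD1 and in the lower levels of TGFA, RET, MYBL1 and CXCL12 was not tested. Between E2 and vehicle libraries of one preparation the ranges of the fibroblast and pericyte, folliculostellate and stem cell and endothelial sums overlapped. In sorted cells the fibroblast and pericyte sum ran from 694 to 1682 CPM with E2, against the 646 to 1408 CPM with vehicle. No single marker on these lists was called for E2 in either preparation without the block (edgeR). With the block ALDH1A1 and CDH1 were called lower with E2 in sorted cells, where 6.2% of all genes were. Some hormone cell markers were called without the block. TRHR and POU1F1 were lower with E2 in sorted cells, and GNRHR was higher in both preparations. With the block TRHR, POU1F1 and FSHB were called lower and GNRHR, GHRHR and DIO2 higher in both preparations. TSHB was then lower in sorted cells only, while DRD2 was higher and PCSK1 lower in unsorted cells only.

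**Figure D4:**
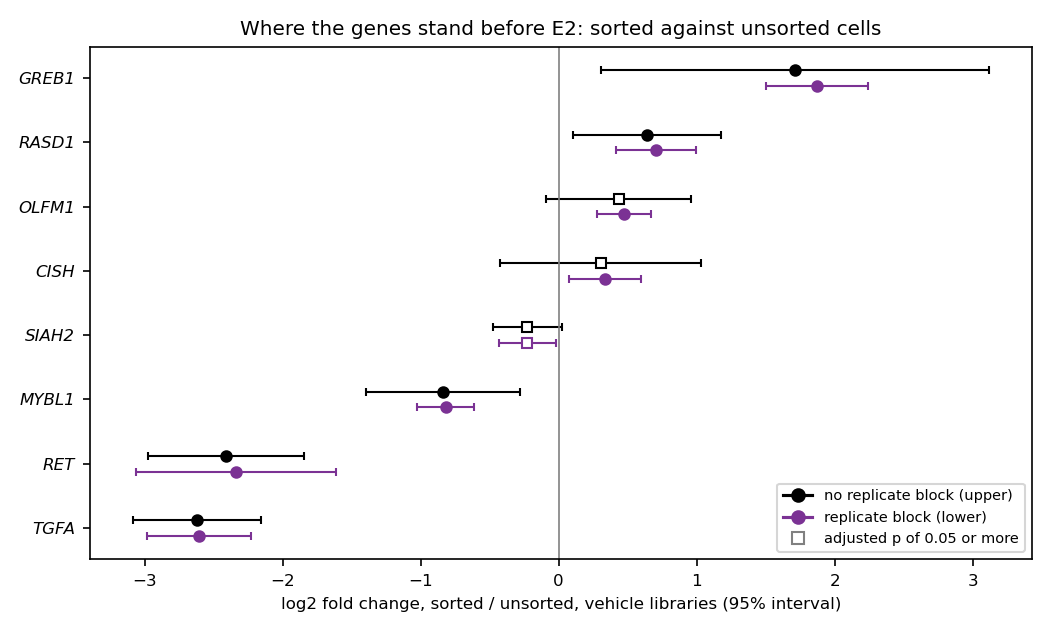
Log2 fold change of sorted over unsorted vehicle libraries (x axis) with its 95% interval for the 8 genes that passed the filter (y axis), without and with the replicate block. GREB1 and RASD1 lie above 0 and MYBL1, RET and TGFA below 0 in both fits, while OLFM1 and CISH pass only with the block.

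Levels of different genes were not ranked, since the counts carry no gene lengths. Within a gene, the order of the 4 groups by mean level was sorted E2, unsorted E2, sorted vehicle and unsorted vehicle for GREB1, and sorted E2, sorted vehicle, unsorted E2 and unsorted vehicle for RASD1. For GREB1 the middle 2 groups, with 28.7 ± 18.4 CPM in unsorted E2 and 20.1 ± 15.6 CPM in sorted vehicle libraries (SD, n = 6 each), lay within each other's spread. For RASD1 the same held of 19.8 ± 4.68 CPM in sorted vehicle and 17.3 ± 7.43 CPM in unsorted E2 libraries. The order of these groups changed between replicates 1 to 3 and replicates 4 to 6 for both genes. In replicates 1 to 3, sorted vehicle and unsorted E2 averaged 22.7 and 21.0 CPM for GREB1 and 16.4 and 11.1 CPM for RASD1. In replicates 4 to 6 they averaged 17.5 and 36.5 CPM for GREB1 and 23.2 and 23.6 CPM for RASD1.

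The receptors through which E2 acts were measured in the same libraries. ESR1, the estrogen receptor alpha gene, had 31.5, 37.4 and 40.4 CPM with E2 and 40.7, 49.6 and 60.4 CPM with vehicle in sorted cells (lowest, median and highest). In unsorted cells it averaged 19.9 ± 3.52 CPM with E2 and 31.0 ± 7.31 CPM with vehicle (SD, n = 6 each). The unblocked differences of -0.42 ± 0.10 and -0.64 ± 0.16 did not pass (adjusted p = 0.069 in sorted and 0.173 in unsorted cells, edgeR), while DESeq2, also without the block, called ESR1 lower in both. In the blocked fits ESR1 fell by 0.45 ± 0.06 in sorted and by 0.67 ± 0.07 in unsorted cells. ESR2, the estrogen receptor beta gene, averaged 2.39 ± 0.83 CPM with E2 and 3.32 ± 0.69 CPM with vehicle in sorted cells (SD, n = 6 each) and was not called in either preparation. GPER1, a membrane receptor of estradiol, had no row of that name. Between vehicle libraries ESR1 was called higher in sorted than in unsorted cells by edgeR, with and without the block, and by DESeq2. ESR2 was called higher there only with the block. Of all genes tested, 24.4% were called higher without and 32.5% with the block by edgeR. The part of the receptor levels in the E2 responses was not tested.

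Other genes known to rise with estrogen in breast cancer cells were taken as a list of 42, of which 35 were named in the tables and 28 passed the filter in sorted cells. There 3 rose and 0 fell, where 1.11% of all genes tested rose and 0.258% fell. At an unadjusted p under 0.05, 7 were higher and 1 lower, and DESeq2 called 4 higher (SLC1A4 in addition) and 0 lower. Their median log2 difference was 0.17, against -0.00 over all genes tested. RARA, a retinoic acid receptor, averaged 99.0 ± 15.8 CPM with E2 and 32.8 ± 9.10 CPM with vehicle (SD, n = 6 each) and rose by 1.63 ± 0.17 (adjusted p = 0.00035, edgeR). NRIP1, a corepressor of nuclear receptors, averaged 145 ± 37.0 CPM in the E2 group and 70.4 ± 12.7 CPM in the vehicle group, a rise of 1.07 ± 0.18 (adjusted p = 0.0058). CELSR2, an adhesion receptor of the cadherin family, rose by 0.52 ± 0.11 (adjusted p = 0.030). The E2 and vehicle groups of RARA and of NRIP1 did not overlap. PGR, XBP1, CCND1, CTSD, KRT19, GAB2 and BCL2 had no row of that name. TFF1, CA12, EGR3, WISP2 and GATA3 failed the filter over all 24 libraries. Their absence from the calls is not a measured lack of response.

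In the blocked fit 10 of these 28 rose and 1 fell in sorted cells, against 7.03% and 6.2% of all genes. The 7 further rises ran from 0.19 for FKBP4, a co-chaperone of steroid receptors, to 0.83 for ELOVL2, a fatty acid elongase. RHOBTB3 fell by 0.41 in sorted and by 0.45 in unsorted cells. In unsorted cells 30 of the list were tested and 0 were called, with 1 higher and 1 lower at an unadjusted p under 0.05 and none called by DESeq2. With the block RARA rose there by 0.58 ± 0.06 and NRIP1 by 0.28 ± 0.05, and as for RASD1 the response was larger in sorted cells, by 1.09 for RARA (adjusted p = 0.018) and by 0.77 for NRIP1 (adjusted p = 0.00050). Without the block edgeR called 0 of 30 for this difference, with 3 larger and 0 smaller in sorted cells at an unadjusted p under 0.05, and DESeq2 called RARA. MYC, a transcription factor of cell growth, differed by -0.10 ± 0.13 and IGFBP4, a binding protein of insulin-like growth factors, by -0.14 ± 0.42 in sorted cells without the block, and neither passed.

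Of a list of 20 genes regulated by estrogen in the uterus, which includes GREB1, 15 were named and 10 were tested in sorted cells, where 2 (GREB1 and VEGFA) rose and 1 fell, against the same 1.11% and 0.258% of all genes. VEGFA, the vascular growth factor, averaged 68.7 ± 13.0 CPM with E2 and 24.4 ± 7.12 CPM with vehicle (SD, n = 6 each) and rose by 1.53 ± 0.18 (adjusted p = 0.00083, edgeR). JUN, which with FOS forms the transcription factor AP-1, fell by 0.66 ± 0.13 (adjusted p = 0.026). The list's median was -0.16. With the block the same 2 rose and 3 fell, against 7.03% and 6.2% of all genes: JUN, CDKN1A, an inhibitor of the cell cycle, which fell by 0.25, and FOS, which fell by 0.90. DESeq2 without the block called FOS and JUN lower. In unsorted cells 11 were tested and 0 were called, with 1 (GREB1) higher at an unadjusted p under 0.05 and none called by DESeq2.

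FOS and JUN are known as genes raised by estrogen in the uterus, and in sorted pituitary cells both were lower with E2. FOS had 147, 189 and 342 CPM with E2 and 289, 366 and 556 CPM with vehicle in sorted cells (lowest, median and highest). In unsorted cells it had 20.1, 27.5 and 38.9 CPM with E2 and 14.7, 24.4 and 29.0 CPM with vehicle, and with the block it rose there by 0.29 ± 0.07 (adjusted p = 0.012). The response of FOS was lower in sorted cells by 1.23 on the log2 scale (adjusted p = 0.043, block), and that of VEGFA was 1.17 higher (adjusted p = 0.0019, block). Without the block edgeR called neither difference (adjusted p = 0.403 for FOS and 0.253 for VEGFA), while DESeq2 called both. FOS was 4.12 higher in sorted than in unsorted vehicle libraries (adjusted p = 1.9e-08, edgeR); the part of the sort in its E2 difference was not tested.

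**Figure D5:**
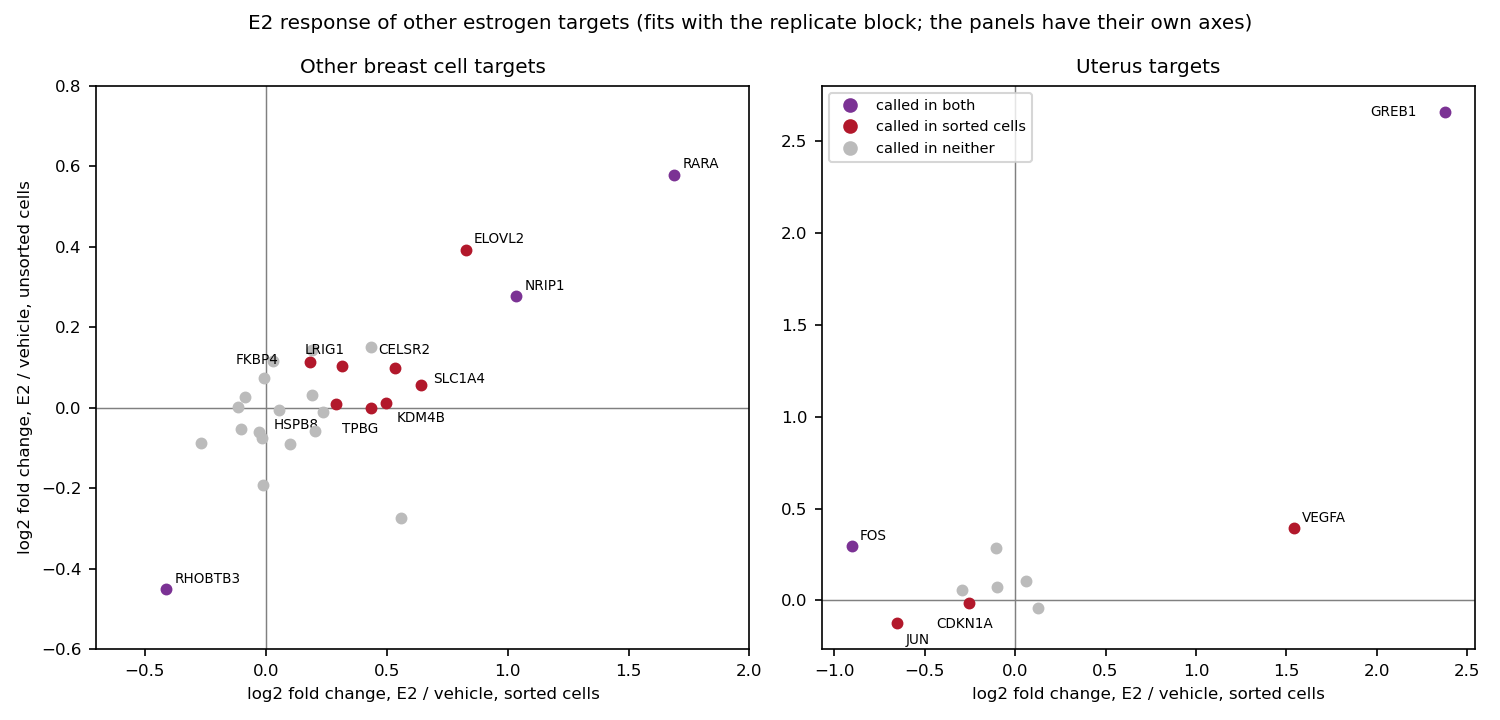
Log2 fold change of E2 over vehicle in sorted (x axis) and unsorted cells (y axis) for listed genes tested in both, from the fits with the replicate block; the 28 breast targets are on the left and the 10 uterus targets on the right. RARA, NRIP1 and GREB1 lie at upper right, and FOS at upper left.

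Receptors, ligands, co-receptors and paralogs of the 10 genes were taken as a further list of 26, of which 19 were tested in each preparation. None was called for E2 in either unblocked fit, with 1 higher at an unadjusted p under 0.05 in sorted and 0 in unsorted cells, and DESeq2 called 0 in both. The receptors CXCR4 of CXCL12 and EGFR of TGFA differed by 0.05 (95% interval -0.36 to 0.45) and 0.04 (-0.25 to 0.32) in sorted cells. With the block 2 of the 19 rose and 2 fell in sorted cells, against 7.03% and 6.2% of all genes. ACKR3, a scavenging receptor of CXCL12, rose by 0.77 and STAT5B, a transcription factor upstream of CISH, rose by 0.28. GFRA1, the co-receptor of RET for GDNF, fell by 0.41, and STC1, the paralog of STC2, fell by 0.46. In unsorted cells with the block OLFM2, a paralog of OLFM1, fell by 0.33 and no other gene of the list was called. There 2.86% of all genes were called higher and 2.37% lower.

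Across the 24 libraries, with log2 CPM centred within each replicate number, the 10 genes fell into patterns that are given as a description. The libraries share sort, treatment and replicate number, and are not independent. GREB1 and RASD1 correlated at r = 0.85 over the 24 libraries. MYBL1 and TGFA correlated at r = 0.94, TGFA and RET at r = 0.92 and CXCL12 and RET at r = 0.88, while TGFA and OLFM1 stood opposite at r = -0.87.

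Among genes with a mean of at least 5 CPM, those most like each gene were picked by the same Pearson r over 24 libraries. The nearest to GREB1 were RAPGEFL1 (0.97), MGAT3 (0.97) and STK32C (0.96), and the nearest to RASD1 were KIF3C (0.98), PHF21B (0.97) and GRAMD4 (0.97). For MYBL1 they were ESPL1, GAS7 and EYA4 (0.96 to 0.97), for TGFA they were MGST2, TNS1 and XK (0.99 each), and for RET they were TGFBI, GLUL and P3H4 (0.98 to 0.99). OLFM1 was nearest to LRRC73 (0.97), RTBDN (0.96) and PTOV1 (0.96), and SIAH2 to NRBF2 (0.91), SERPING1 (0.90) and MRPS15 (0.90). CXCL12 was nearest to SMOX, RELB and G6PC3 (0.90 each). CISH and STC2 had no gene as close, with SWSAP1 (0.80) and PIM2 (0.78) for CISH and VPS52 (0.75), EXOC7 and RTF2 (0.71 each) for STC2.

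In the authors' deposited table for sorted cells GREB1 had a log2 fold change of 2.19 (adjusted p = 7.3e-06) and RASD1 one of 1.31 (adjusted p = 1.7e-06). The authors' deposited table for unsorted cells gave GREB1 2.14 (adjusted p = 0.0033) and RASD1 0.43 (adjusted p = 1). In the same authors' deposited tables the other 8 genes had an adjusted p of 1 in both preparations.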

How the data were processed

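RNA-seq read counts were taken as the authors deposited them: whole numbers per gene and library in 3 tables with Ensembl sheep identifiers. Counts were made with featureCounts 1.5.1, per the submitters' processing notes; the aligner, build and strandedness were not given in the sources used here. The 12 vehicle libraries stand in 2 tables each, and 0 values differed between copies. The deposited log2 fold changes and p-values come from the authors' edgeR runs, per the file headers; their sorted-against-unsorted table was not used. Comparisons were fitted in edgeR 4.0.16 (R 4.3.3) with TMM, filterByExpr, robust glmQLFit and 2-sided quasi-likelihood F-tests, adjusted over all genes tested and tested on simulated data. SE is the log2 fold change over the square root of F. DESeq2 1.42.0 was an alternative. Pair ratios and correlations used log2 CPM with a prior count of 2. Reads are not independent molecules.

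The labels do not tie equal replicate numbers to one culture. In counts centred by group, same-numbered libraries correlated at r = 0.66 to 0.86 between sorted E2 and vehicle, 0.57 to 0.84 between unsorted E2 and vehicle and 0.29 to 0.51 between sorted and unsorted vehicle, and 6 of 6 correlated best with their own number, so fits with the replicate block are given beside the unblocked ones.

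The 10 genes, the lists and the tests were chosen with earlier results of these data known. Named were all 10 genes, up to 4 called genes per list and E2 comparison with the smallest p, 3 estrogen receptors and the 3 genes most like each gene, of which 1 for CISH is not reported here; other list genes were named after their values were seen. Sequences and promoter motifs are not analysed here.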

Additional observations from a re-analysis of the deposited data

Results flagged for a closer look

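Chance marks about 1 in 20 groups of libraries as holding an outlier, and 40 groups (10 genes in 4 groups) were examined for one. GREB1 stood at 20.8 CPM in unsorted vehicle replicate 1, where the other 5 libraries of that group ran from 1.58 to 5.85 CPM. The sorted vehicle library of the same number was also the highest of its group, at 49.3 CPM. STC2 stood at 2.42 CPM in unsorted vehicle replicate 2, where the other 5 libraries ran from 0.156 to 0.525 CPM.

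The E2 response of RASD1 was larger in sorted than in unsorted cells by 0.83 on the log2 scale in the interaction fit with the replicate block (adjusted p = 0.0091, edgeR), in 6 of 6 replicates. In the unblocked fit it was larger by 0.86 and did not pass (adjusted p = 1.00).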

How the results depend on the processing

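The fold changes of the 10 genes kept their direction in every alternative run wherever they were called. With the replicate block, E2 against vehicle called 1896 genes in sorted cells, against 196, and 790 in unsorted cells, against 37, and the interaction called 70, against 4; of the 10 genes it called 2 in unsorted cells, against 0, and 1 in the interaction, against 0, and it added OLFM1 and CISH to the sort comparison. The block changed no other call of the 10 genes. In the order sorted, unsorted and interaction, DESeq2 called 401, 124 and 22 genes, the depth set as a covariate 505, 143 and 15, replicates 1 to 3 alone with the block 563, 67 and 2, and replicates 4 to 6 alone with the block 1277, 730 and 47. Of the 10 genes, replicates 1 to 3 alone gave 1 in sorted and 1 in unsorted cells, and replicates 4 to 6 alone gave 2 in unsorted cells and 1 in the interaction. Without the filter on low counts 1 of the 10 was called in sorted cells (GREB1 had adjusted p = 0.092) and the interaction called 0 genes, with 4 in the filtered fit; in the sort comparison GREB1 (0.069) and RASD1 (0.058) were then not called. The cause of these shifts was not tested.

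Fits that left out one library or, chosen after seeing the data, one replicate number with the block, called 125 to 1893 genes and 1 to 2 of the 10 in sorted cells, 11 to 822 and 0 to 2 in unsorted cells, 0 to 58 and 0 to 1 in the interaction, and 6170 to 9246 and 3 to 8 in the sort comparison. Without the block the ranges of genes were 125 to 208, 11 to 48, 0 to 4 and 6170 to 7368 in the same order; the lowest came without sorted vehicle replicate 3 (sorted) and without unsorted E2 replicate 5 (unsorted). RLE normalization moved no call of the 10 genes. Depth limits CXCL12 and STC2, which had 21 to 29 reads per group in sorted cells. The promoter motif search was not run.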

Other observations

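CISH and RASD1 separated the replicate numbers within every group. CISH ran from 14.9 to 20.2 CPM in replicates 4 to 6 and from 7.81 to 12.7 CPM in replicates 1 to 3 of the sorted E2 group, and the 2 sets did not overlap in any of the 4 groups. RASD1 ran from 46.5 to 69.8 CPM in replicates 4 to 6 and from 31.6 to 37.2 CPM in replicates 1 to 3 of the sorted E2 group, and they did not overlap in any of the 4 groups either. Of the 15134 genes that passed the filter, 10.1% were likewise higher in replicates 4 to 6 without overlap in all 4 groups and 4.17% lower. The sets differ in depth, and the labels name no batch. This was noticed after the values were seen, and was not tested.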
